A study of Mus musculus with 6 samples.

Results

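The genes described here are the 5 imprinted genes of the Peg10-Sgce cluster on proximal mouse chromosome 6, namely Peg10, Sgce, Ppp1r9a, Asb4 and Calcr. They were given by name and found in the deposited table by Ensembl identifier without its version. All 5 of 5 had a row among the 53647 features of the table. Calcr and Peg10 were listed at 0 in all 6 libraries, Sgce had reads in 1 library, and Asb4 and Ppp1r9a had a few reads in 4 libraries each.

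The libraries were made from D2.OR, a murine breast cancer line, after lentiviral delivery of 1 of 2 short hairpin RNAs. The control hairpin was scrambled (Scram, n = 3) and the other targeted Slx4ip (shSLX4IP, n = 3). Both groups were selected with puromycin and kept for 7 days in 3D on Cultrex, which is basement membrane matrix (serum 10%, Cultrex 5% of the medium). The labels name 1 hairpin per group and call the replicates biological, without saying whether they were separate cultures. The p-values therefore measure the spread between these libraries, part of which may be technical. Libraries are named by the letters of their columns, and 3 values of a group always follow in the order A, B, C.

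Imprinted genes are transcribed mainly from the allele of 1 parent, and neighbouring imprinted genes often share a control region. In this cluster the control region is the promoter shared by Peg10 and Sgce, which is methylated on the maternal chromosome, so that both genes are expressed from the paternal one. Ppp1r9a, Asb4 and Calcr are expressed preferentially from the maternal allele in some tissues, with placenta and brain the best known. The table sums both alleles and holds no allelic information. In bulk RNA, fewer cells that express a gene and less RNA per cell cannot be told apart.

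The identifiers of this table can be read as genes only in stretches of the genome where gene models and values agree. Outside them this fails for genes that every cell uses: Actb and Eef1a1 were listed at 0 in all 6 libraries. The 5 members lie inside such a stretch, chromosome 6 from 3372257 to 30509783 (GRCm38), which holds 119 of the 569 protein-coding genes of the 4 stretches used. Whether each row inside it counts exactly the exons of its gene was not tested. The outermost members lay 313 kb from its start (Calcr) and 25077 kb from its end (Asb4). Recovered depth was 5433573 to 6693111 reads per library, and 1 read was worth between 0.796 and 1.46 on the deposited scale. Slx4ip lies outside the 4 stretches and was listed at 0 in all 6 libraries, so the knockdown could not be checked. The breast cancer label could be checked only through 2 of 8 epithelial markers, Grhl2 at 2.93 to 68.8 and Esrp1 at 0 to 13.2, and both were low. Of 5 mesenchymal markers, 2 could be read. Zeb1 had values of 349, 961 and 760.2 in Scram, compared with 1442, 1484 and 1423 in shSLX4IP, and did not pass (limma adjusted p = 0.0798). Col1a2 lay at 20226 to 25022 in Scram and at 239 to 302 in shSLX4IP, the opposite direction. Of 3 muscle, 3 trophoblast, 3 blood and 2 endothelial markers, 0 could be read.

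Promoter sequence was found for 3 of the 5 members in the RefSeq table (GRCm38.p6). Peg10 and Sgce were not matched. For the 2 members with reads in each shSLX4IP library, both starts of Ppp1r9a and the first of the 2 starts of Asb4 are shown, because the values below turn on these genes. Each is the plus strand upstream of the annotated start, 5′ to 3′, with every CG dinucleotide in capitals. For the first start of Ppp1r9a the stretch ends where the first annotated exon begins.
Ppp1r9a, first start, chr6:4902725-4902916: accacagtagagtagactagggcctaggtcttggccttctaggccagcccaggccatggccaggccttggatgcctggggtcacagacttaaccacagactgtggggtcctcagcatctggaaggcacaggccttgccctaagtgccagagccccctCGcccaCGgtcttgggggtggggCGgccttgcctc
Ppp1r9a, second start, chr6:4903061-4903310: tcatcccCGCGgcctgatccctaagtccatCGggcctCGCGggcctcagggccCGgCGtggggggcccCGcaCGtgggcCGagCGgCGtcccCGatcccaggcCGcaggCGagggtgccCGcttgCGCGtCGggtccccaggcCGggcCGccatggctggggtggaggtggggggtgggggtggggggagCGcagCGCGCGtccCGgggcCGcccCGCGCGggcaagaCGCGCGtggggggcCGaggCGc
Asb4, first start, chr6:5383136-5383385: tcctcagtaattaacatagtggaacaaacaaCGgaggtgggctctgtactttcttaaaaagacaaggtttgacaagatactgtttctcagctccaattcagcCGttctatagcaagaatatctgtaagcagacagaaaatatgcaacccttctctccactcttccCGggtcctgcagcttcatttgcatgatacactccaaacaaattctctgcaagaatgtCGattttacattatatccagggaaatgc
In the 250 bases before its first start Asb4 had 4 CG dinucleotides, and 62.2% of 32851 RefSeq promoters of that length had at least as many. Its second start, which is not shown, had 8 (43.0%). The median of all promoters was 6. The first start of Ppp1r9a had 8 in its full 250 bases (43.0% with at least as many) and the second had 35 (2.97%). Calcr had 2 before its first start and 24 before its second (11.98%). CG was counted on 1 strand, since it reads the same on both. Of the 4 starts of Ppp1r9a and Asb4, the second of Ppp1r9a thus stood furthest above the median.

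Peg10 (ENSMUSG00000092035.9, chromosome 6, 4747306 to 4760517, plus strand) derives from a retrotransposon, encodes gag- and pol-like proteins and is needed for the placenta to form. Its row held 0 in each of the 6 libraries. With 6667 bases of annotated exon, 3 reads would have given between an RPKM of 0.0672 in shSLX4IP C and one of 0.0828 in shSLX4IP B. RPKM was computed from recovered reads and exonic length, and its median over the 569 protein-coding genes was 16.1. No fold change was computed, since both groups were at 0.

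Sgce (ENSMUSG00000004631.16, chromosome 6, 4674350 to 4747207, minus strand) encodes epsilon-sarcoglycan, a membrane protein whose human counterpart is mutated in myoclonus dystonia. It starts 99 bases from Peg10 and runs away from it. Its deposited value was 15.6 in shSLX4IP B, which is 16 reads, and it was listed at 0 in the other 5 libraries. The single library with reads makes no group difference. An exact permutation test of the log2 values gave p = 1, and 3 libraries against 3 cannot give a 2-sided p below 0.1. Since Peg10 had no reads in that library, the 2 genes of the shared promoter were not read together in any library.

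Ppp1r9a (ENSMUSG00000032827.16, chromosome 6, 4902917 to 5165661, plus strand) encodes neurabin-1, which binds actin filaments and brings protein phosphatase 1 to them. It was listed at 0 in Scram A and Scram B and at 8.20 in Scram C (9 reads). It was at 36.2 in shSLX4IP A (40 reads), 15.6 in shSLX4IP B (16 reads) and 13.5 in shSLX4IP C (17 reads). Each shSLX4IP library was thus above each Scram library, with shSLX4IP A more than the other two. On the log2(value + 1) scale the difference was 3.31 (SE 1.07), and it did not pass (limma adjusted p = 0.0770, Benjamini-Hochberg over 8127 features). The unadjusted limma p was 0.0222. A limma adjusted p under 0.05 was reached by 23.0% of all features tested, and groups without overlap were found in 53.5%. The exact permutation test gave p = 0.1, the smallest possible with 3 against 3. Counted as reads, the gene did not pass with edgeR (adjusted p = 0.227) or with DESeq2 (adjusted p = 0.0884). It passed without Scram C, where no Scram reads remained (log2 difference 4.38, limma adjusted p = 0.0227, a size that depends on the 1 added before the logarithm). With adjustment over the 462 placed features alone, those of the 4 stretches and the mitochondrial genome, it also passed (adjusted p = 0.0458).

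Asb4 (ENSMUSG00000042607.16, chromosome 6, 5383386 to 5433022, plus strand) encodes a SOCS-box protein that serves as a substrate adaptor of a ubiquitin ligase. It was listed at 0 in Scram A and Scram B, at 11.8 in Scram C (13 reads), while the shSLX4IP libraries held 9.06, 6.83 and 5.57 (10, 7 and 7 reads). The highest value was in a Scram library, and the groups overlapped. Its mean of 5.55 was under the minimum of 10 set for the fit, and the exact permutation test gave p = 0.4. With no minimum its limma adjusted p was 0.373, and that of Sgce was 0.495.

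Calcr (ENSMUSG00000023964.16, chromosome 6, 3685680 to 3764714, minus strand) encodes the calcitonin receptor, a G protein-coupled receptor known from osteoclasts and brain. It was listed at 0 in each of the 6 libraries, where 3 reads would have given an RPKM of 0.115 to 0.141. The rows of the 2 microRNA genes in its introns, Mir489 and Mir653, were also at 0. A poly(A) library does not measure mature microRNAs. Exons of the 5 members overlapped no exon of another annotated gene.

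**Figure D1:**
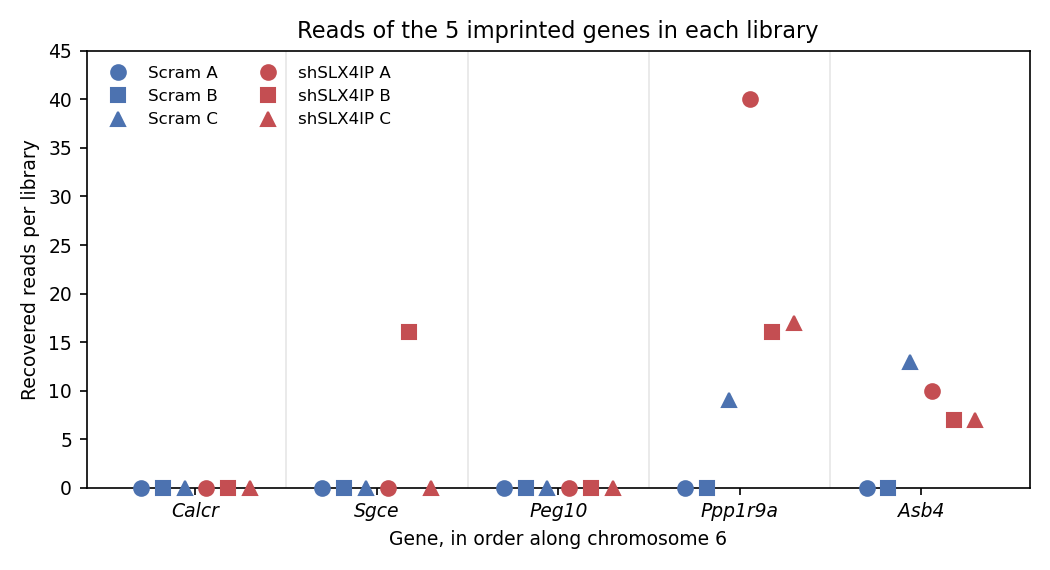
Recovered reads (y axis) of the 5 imprinted genes (x axis, in chromosome order) in each library, with Scram in blue, shSLX4IP in red and a symbol for each letter. Calcr and Peg10 lie at 0 throughout, Sgce has its 16 reads in shSLX4IP B, and the highest point is the 40 reads of Ppp1r9a in shSLX4IP A.

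The zeros of this table have a limited resolution. Features in the 4 stretches were taken where the other two libraries of a group each had 5 to 9 reads. The remaining library was listed at 0 in 9 of 32 such cases (28.1%), which were 7 of 16 in Scram and 2 of 16 in shSLX4IP. With 10 to 19 reads in the other two this was 3 of 39 (7.69%; 2 of 25 in Scram and 1 of 14 in shSLX4IP), with 20 to 49 reads 1 of 69 (1.45%) and with 50 to 99 reads 0 of 67. A member listed at 0 in 1 library therefore cannot be told from one with a handful of reads. This touches Sgce in 5 libraries, and Ppp1r9a and Asb4 in Scram A and Scram B, the group with more such zeros at 5 to 9 reads. Scram A had 8464 features above 0, against 10548 to 11611 in the other 5 libraries. The part of these zeros in the Ppp1r9a difference was not tested.

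Per length and depth, the members with reads were ordered Asb4 (mean RPKM over 6 libraries 0.256), Ppp1r9a (0.157) and Sgce (0.0462). Neighbours in this order were not separated beyond their spread. Asb4 ranged from 0 to 0.504, Ppp1r9a from 0 to 0.473 and Sgce from 0 to 0.277. Of the 569 protein-coding genes in the 4 stretches, 36.7% were lower than Asb4, 35.7% lower than Ppp1r9a and 30.4% lower than Sgce. A gene listed at 0 in all libraries is common: 148 of the 569 (26.0%) were, and a further 67 had reads with a mean under 10. The 2 all-zero members are thus in a large class, and 4 of the 5 members were below the minimum that 62.2% of the 569 genes reached.

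**Figure D2:**
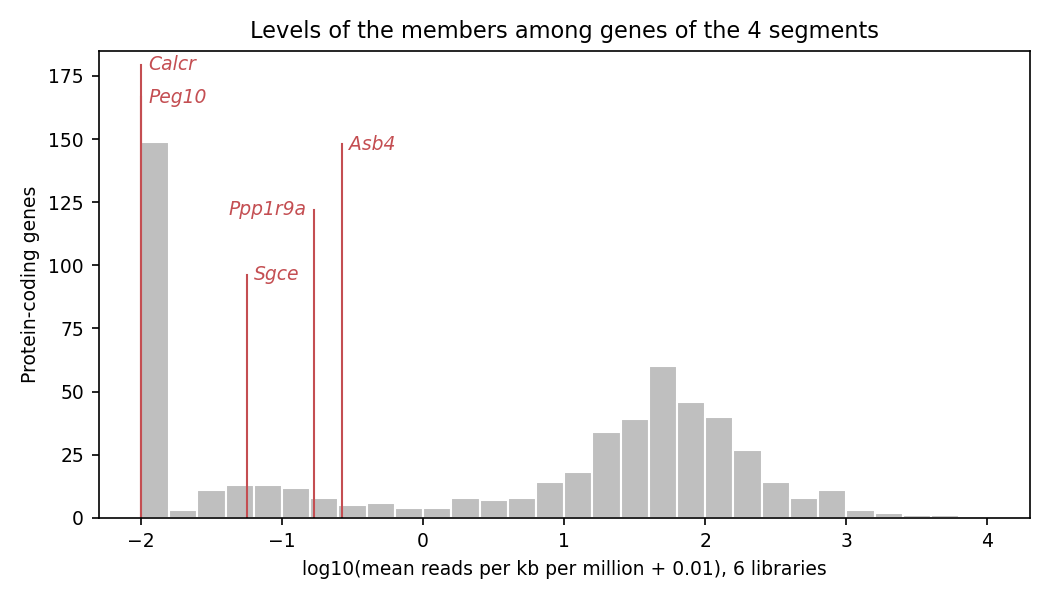
Number of protein-coding genes of the 4 stretches (y axis) by their mean level over 6 libraries, as log10 of RPKM plus 0.01 (x axis). Red lines mark the members. Calcr and Peg10 are in the bar of genes at or near 0 and the other 3 lie left of the main peak of expressed genes.

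Several genes around and between the members had high values. Of the protein-coding ones that passed, the 3 between Calcr and Asb4 were lower in shSLX4IP and the 3 outside that span were higher. In the chromosome 6 stretch outside this window, 16 of 53 tested protein-coding genes were higher and 3 lower. The split also depends on the threshold. Casd1, inside the span, lay higher with a limma adjusted p of 0.0555 and was called higher in 7 of 17 other settings. The protein-coding genes lying wholly between 3.3 and 8.0 Mb of chromosome 6 numbered 27, of which 22 were no members. Of these 22, 7 were listed at 0 in all libraries (31.8%, against 26.0% of the 569 genes), 1 (Hepacam2) had a mean under 10 and 14 were tested. With limma 3 were higher in shSLX4IP (Samd9l, Slc25a13 and Dlx5), 3 were lower (Gng11, Col1a2 and Pon2) and 8 did not pass. That is 42.9% of those tested, against 23.0% of all features, 40.3% of placed features and 44.6% of placed protein-coding genes tested. The median log2 fold change was 0.24, against 0.25 over all features tested, -0.23 over placed features and -0.15 over placed protein-coding genes. The groups did not overlap in 11 of the 14 (78.6%), against 53.5% of all features tested, 67.1% of placed ones and 73.4% of placed protein-coding genes. Of these 11, 6 lay higher in shSLX4IP and 5 lower, where the shares over all features tested were 30.2% and 23.4%. Among the 462 placed features 128 lay higher without overlap and 182 lower. After quantile normalization 5 were higher and 3 lower, and without Scram A 7 were higher and 4 lower. Without Scram C, or without any 1 shSLX4IP library, only Dlx5 remained on the higher side.

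**Figure D3:**
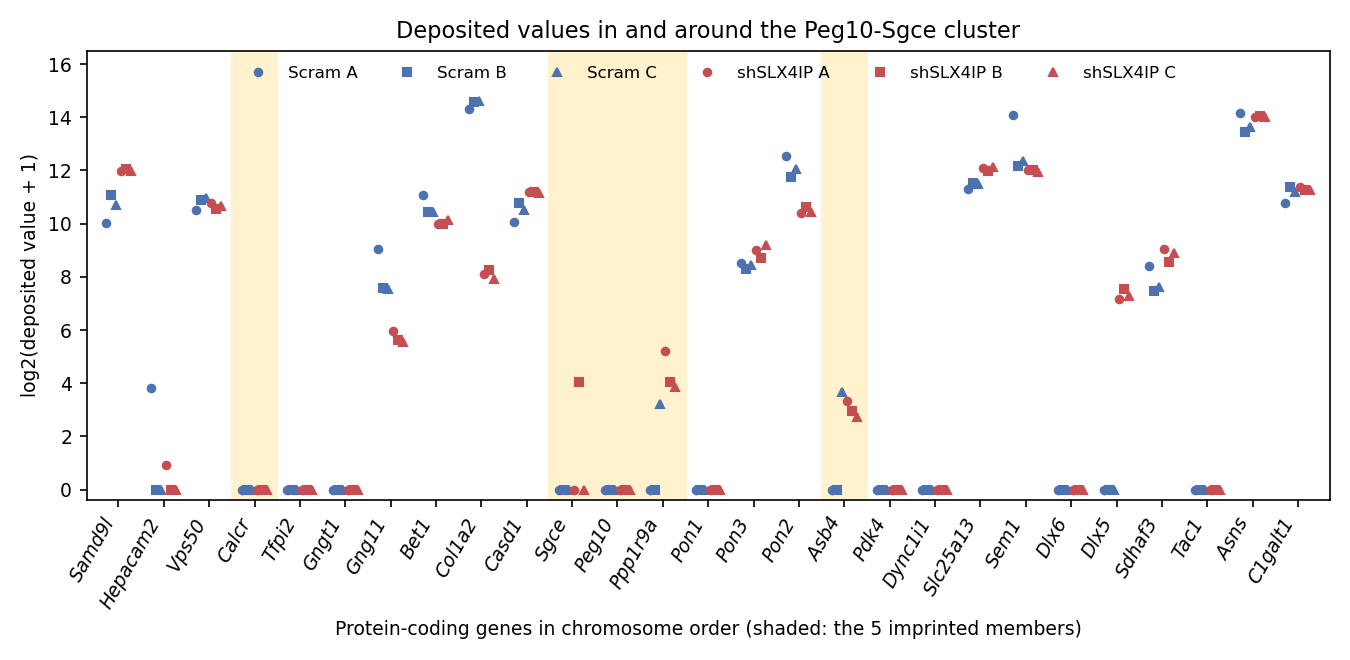
Deposited values as log2(value + 1) (y axis) of the 27 protein-coding genes around the cluster in chromosome order (x axis), 1 point per library. The 5 members are shaded and lie at or near 0, between genes such as Col1a2 and Pon2 with values above 1000.

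Inside the stretch from Calcr to Asb4 the 3 protein-coding genes that passed were lower. All 6 tested protein-coding neighbours there had groups without overlap. The share without overlap was 53.5% over all features tested and 73.4% over placed protein-coding genes tested. Gng11, a gamma subunit of heterotrimeric G proteins, lies 239 kb beyond Calcr. It had values of 524, 189.6 and 183 in Scram, compared with 60.7, 48.8 and 46.2 in shSLX4IP. Scram A was by far the highest of these (log2 fold change -2.33, SE 0.47, limma adjusted p = 0.0216). Without Scram A the log2 fold change was -1.83, and the call was lost without any 1 shSLX4IP library (adjusted p 0.0739 to 0.0918). Col1a2, a chain of type I collagen, had a log2 fold change of -6.42, the lowest of the 14. Pon2, an intracellular paraoxonase that limits oxidative damage, had values of 5950, 3454 and 4210 in Scram, compared with 1355, 1581 and 1384 in shSLX4IP. Its log2 fold change was -1.62 (SE 0.23, limma adjusted p = 0.00635), and it kept its call in all 17 other settings. A part of its exons overlaps Gm44424 on the other strand.

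The nearest tested protein-coding neighbours of Ppp1r9a on either side, Casd1 and Pon3, had positive differences like Ppp1r9a itself, and none of the 3 passed. Pon2, beyond Pon3 but nearer to Ppp1r9a than Casd1, was lower (log2 fold change -1.62, limma adjusted p = 0.00635). Casd1, which O-acetylates sialic acids, lies 31.0 kb from Sgce and 259.6 kb from Ppp1r9a. It had values of 1069, 1744 and 1467 in Scram, compared with 2350, 2323 and 2297 in shSLX4IP (log2 fold change 0.73, SE 0.21, limma adjusted p = 0.0555). Pon3, a paraoxonase with lactonase activity, lies 55.2 kb beyond Ppp1r9a. It had values of 362, 317 and 344 in Scram, compared with 516, 413 and 586 in shSLX4IP (log2 fold change 0.55, SE 0.20, limma adjusted p = 0.101). Without Scram A both passed (adjusted p 0.00962 and 0.0472) and Ppp1r9a did not (0.106). Pon2 and Pon3 are paralogues that have been described, with Tfpi2, as maternally expressed in mouse extraembryonic tissue. They are adjacent, and Pon2 fell while the value of Pon3 lay higher. Tfpi2, an inhibitor of serine proteases, was listed at 0 in all 6 libraries, as was Pon1. Bet1, a SNARE of transport from the endoplasmic reticulum to the Golgi, had values of 2156, 1372 and 1375 in Scram, compared with 1011, 1024 and 1125 in shSLX4IP and did not pass (limma adjusted p = 0.105).

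Elsewhere in the window the 3 protein-coding genes that passed were higher. Samd9l, an interferon-induced gene that restrains growth, had values of 1038, 2182 and 1683 in Scram, compared with 4005, 4198 and 4044 in shSLX4IP. The log2 fold change was 1.38 (SE 0.28, limma adjusted p = 0.0223). Slc25a13, which encodes the mitochondrial carrier citrin, had values of 2526, 2954 and 2890 in Scram, compared with 4412, 4086 and 4462 in shSLX4IP. Its log2 fold change was 0.63 (SE 0.13, limma adjusted p = 0.0202). Both calls were lost without Scram C or any 1 shSLX4IP library, and that of Slc25a13 also in limma without the intensity trend (adjusted p = 0.0859). Dlx5, a homeobox gene of bone development, had no reads in any Scram library and values of 141 to 184 in shSLX4IP. Its close neighbour Dlx6 was listed at 0 in all 6 libraries.

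The remaining tested neighbours did not pass. Sdhaf3, an assembly factor of succinate dehydrogenase, had values of 337, 176 and 194 in Scram, compared with 525, 378 and 470.5 in shSLX4IP (limma adjusted p = 0.0711, and 0.00466 without Scram A). Sem1, a small subunit of the proteasome lid, was at 17486 in Scram A, 4554 and 5301 in Scram B and C and 3955 to 4166 in shSLX4IP, so that Scram A stood apart. Vps50, of an endosomal recycling complex, and C1galt1, which builds O-glycans, had groups that overlapped (adjusted p 0.574 and 0.479), as did Asns, the asparagine synthetase gene (adjusted p = 0.334). Without Scram A, limma adjusted p was 0.00535 for Asns and 0.0161 for Bet1. In Scram A the value of a neighbour was between 0.537 (Samd9l) and 3.55 times (Sem1) the mean of Scram B and C. The part of this library in the differences beyond the values given without it was not tested.

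Adjacent neighbours took the same sign about as often as not. In chromosome order the 14 tested neighbours made 13 adjacent pairs, of which 7 (53.8%) had log2 fold changes of the same sign. Over the protein-coding genes of the 4 stretches outside this window it was 175 of 335 pairs (52.2%). In the window both genes of a pair were called once, in the pair of Pon2 and Slc25a13, which went in opposite directions. Genes in the same stretch share libraries and scaling, so these shares are descriptions.

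**Figure D4:**
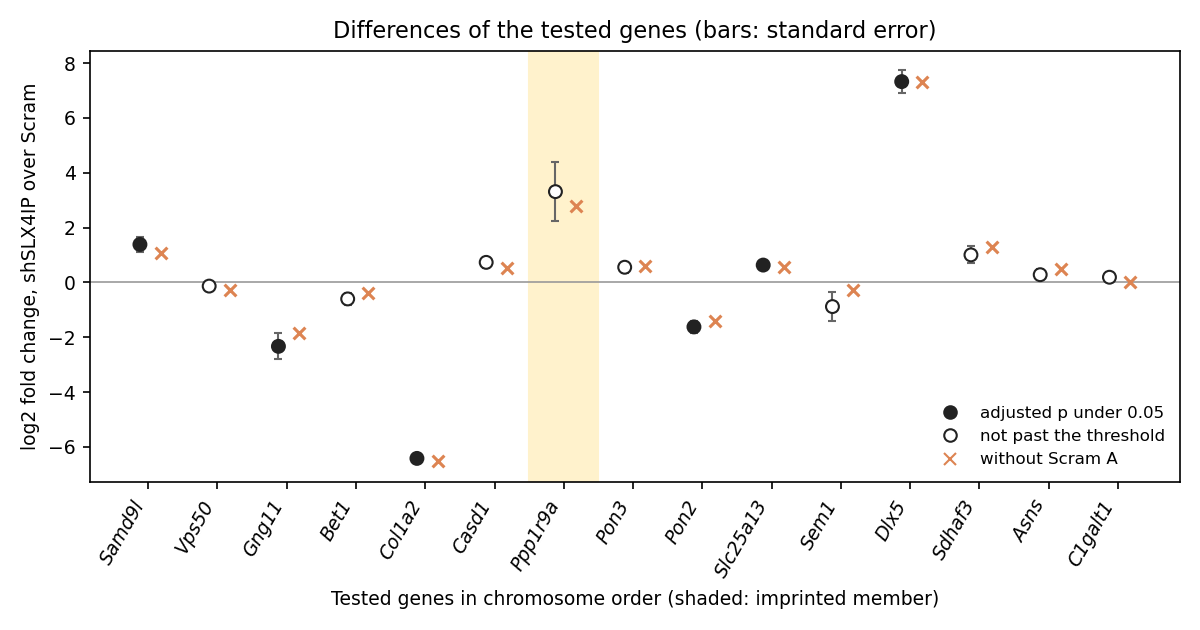
log2 fold change of shSLX4IP over Scram on the log2(value + 1) scale (y axis) for the 15 tested genes in chromosome order (x axis), with standard errors of the limma fit. Filled circles passed the adjusted threshold, open circles did not, and crosses give the value without Scram A. Ppp1r9a is shaded, has the widest error at 1.07, and lies between Casd1 and Pon3.

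The other genes tied to the members by function could not be read. Of 38 imprinted genes elsewhere in the genome, 13 genes of the sarcoglycan and dystrophin complex, 8 of the calcitonin receptor family and 12 gag-derived genes with a row, 0 lay in the 4 stretches. Of 42 other protein phosphatase 1 genes only Ppp1r3a did, listed at 0 in all libraries. Of 17 other Asb genes only Asb15 did, at 2.80 in Scram B and at 0 in the others. Among 339 tested genes of the 4 stretches outside the window, the 3 with the pattern most like that of Ppp1r9a over the 6 libraries were Enho, Lyn and Mob3b. Likeness was the root mean square distance between centred log2 values, which was 0.955, 1.00 and 1.01. Enho was the only one of the 3 at a level like that of Ppp1r9a, at 0, 3.74 and 5.47 in Scram and at 29.9, 38.1 and 23.9 in shSLX4IP.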

How the data were processed

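RNA-seq of 3 Scram and 3 shSLX4IP libraries was read from 1 deposited table. Tools listed, without roles, in the submitters' processing notes are DESeq2 1.22.1, StringTie 2.1.7, STAR 2.7.7 and fastp 0.19.5, and the build is GRCm38. Whether counting used strand, and with which annotation release and filters, is not given in the sources used here. As its low values show, the table as deposited by the authors holds signal, in that each library's read counts were scaled by a constant. Dividing by the value of 1 read gave numbers within 0.1 of a whole for 99.98% to 100% of values above 0. An edgeR test of these reads called 1566 features. Identifiers were matched to GENCODE M21 (52093 of 53647). Stretches with readable identifiers were maximal-scoring segments over protein-coding genes (3 for a mean of at least 1000, otherwise -1, score of at least 30), which gave 4. These genes and the mitochondrial ones are called placed.

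Features with a mean of at least 10 were tested (8127) as log2(value + 1) in a 2-sided limma fit (3.58.1, R 4.3.3, trend on intensity), adjusted by Benjamini-Hochberg at a threshold of 0.05. Such fold changes understate changes of low genes. Other tools were edgeR 4.0.16 and DESeq2 1.42.0, and the scripts were tested on simulated data. Named were the members, the window's protein-coding genes, the 3 genes nearest in pattern and placed genes of the lists. The members and lists were chosen with earlier results of these data known. Floors of 3 reads cover counting error only.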

Additional observations from a re-analysis of the deposited data

How the results depend on the processing

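Ppp1r9a kept a positive difference in all 16 other settings in which it was tested. It passed in 3 of them, without Scram C, with adjustment over placed features only (3.31) and with the trend with exonic length removed. That last fit, adjusted over 431 features of the 4 stretches only, gave a log2 fold change of 2.99 (limma adjusted p = 0.0329). Leaving out 1 library gave 2.78 to 4.38, and quantile normalization, which moved the median of all features from 0.25 to -0.0028, gave 1.79. A minimum mean of 50 left it untested. Of the 14 tested neighbours, 3 were higher, and this became 5 after quantile normalization, 6 with DESeq2, 5 adjusted over placed features and 7 with the length trend removed, which also made 5 lower instead of 3. Leaving out 1 library gave 1 to 7 higher and 2 to 4 lower. Vps50 changed sign after quantile normalization (log2 fold change 0.19) and was called in neither case. Counts over all 8127 features were 952 higher and 920 lower. They became 1602 and 1624 by DESeq2, and leaving out 1 library gave 433 to 1895 higher and 410 to 1573 lower. The cause was not tested. Adjustment over placed features (462) and removal of the length trend (431 features) were not run for all features. No paired analysis was possible because the columns carry letters and the labels carry replicate numbers. At this depth a gene can be listed at 0 in 1 library though the others of its group have reads. This was most frequent where those had 5 to 9 reads (28.1%). It was also seen at 10 to 19 reads (7.69%) and at 20 to 49 reads (1.45%).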

Other observations

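The same window held 55 rows of non-coding genes and pseudogenes. Of these, 33 were listed at 0 in all libraries (60%, against 68.9% of all features and 53.9% of placed ones). Tested were 9, with 4 higher and 1 lower by limma. That is 55.6% of those tested, against 23.0% of all features and 40.3% of placed ones. The higher rows include Gm20559 and Gm43197, which lie before the readable stretch. The rows of this section were not among the genes named by rule and are given after their values were seen. Between Calcr and Asb4, Gm44379 and Gm44250 were higher, unlike the protein-coding genes called there. Gm44379 had few reads (mean value 10.3, log2 fold change 2.37, limma adjusted p = 0.0337) and did not pass in 6 of 16 other settings. Gm5873, outside that span, was lower (log2 fold change -2.32, limma adjusted p = 0.0333) and did not pass in 5 of 17 other settings. Gm44250, annotated just beyond the 3′ end of Pon3 on the same strand, had values of 294, 311 and 328 in Scram, compared with 574, 519 and 478 in shSLX4IP. Its log2 fold change was 0.75 (limma adjusted p = 0.0302), where that of Pon3 was 0.55 and did not pass. Gm44250 itself did not pass under 6 of 17 alternatives, where adjusted p reached 0.111, and the difference between both genes was not tested. Gm20559 and Gm43197, on the Samd9l side of the window, lie before the start of the readable stretch of chromosome 6. Their identifiers therefore cannot be read as genes, and they are given as rows only. The row of Gm20559 had values of 511, 409 and 409 in Scram, compared with 915, 938 and 857 in shSLX4IP. Its limma adjusted p was 0.0104, and up to 0.0533 in the 2 of 15 other settings that lost the call. Gm43197, inside the span of Gm20559, had values of 2.93, 45.8 and 42.8 in Scram, compared with 362, 266 and 362 in shSLX4IP (limma adjusted p = 0.0399). Its log2 fold change was 4.03, and 2.86 without Scram A. It did not pass under 6 of 15 alternatives, including edgeR, limma without the trend and each fit without 1 shSLX4IP library (highest adjusted p 0.140). Between Peg10 and Ppp1r9a the pseudogene Gmfg-ps was the one tested feature, with 82.0, 41.1 and 25.5 in Scram, compared with 33.5, 3.90 and 12.7 in shSLX4IP, with groups that overlapped and a limma adjusted p of 0.183.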
